A study of Arabidopsis thaliana with 12 samples.

Results

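The 8 genes described here encode aldehyde dehydrogenases (ALDH) of Arabidopsis thaliana: ALDH10A8, ALDH10A9, ALDH11A3, ALDH22A1, ALDH2C4, ALDH3F1, ALDH6B2 and ALDH7B4. They were chosen by name, with earlier results of these data known, as genes whose ATH1 probe set the platform annotation assigns to that gene alone. Each has 1 probe set among the 22810 of the deposited table. RefSeq's gene table holds 14 symbols that open with ALDH, and the other 6 (ALDH2B4, ALDH2B7, ALDH3H1, ALDH3I1, ALDH5F1 and ALDH12A1) are not named in the annotation and were not analysed here.

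Aldehydes arise wherever a cell breaks down amino acids, polyamines, sugars and membrane lipids, and they react with proteins and nucleic acids when they build up. Aldehyde dehydrogenases oxidise them to carboxylic acids with NAD+ or NADP+ as the electron acceptor. In plants the family is known both for steps of ordinary metabolism and for protection during drought, salt and oxidative stress, when lipid peroxidation makes more aldehydes.

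Whole seedlings, 1 week old, were used, and total RNA was hybridised to 1 ATH1 array per sample. The 4 groups, of 3 arrays each, were wild-type Col-0 (WT) left untreated, WT dehydrated for 1 h on filter paper at 22 °C and 60% humidity, and the WRKY46 overexpressing line 46T under the same conditions, untreated or dehydrated. WRKY46 is a transcription factor, and 46T is a single line whose promoter the labels do not give. Each group's arrays are labelled as biological replicates 1 to 3, with no word on separate sowings, so p-values measure the spread between these samples, which may in part be technical.

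Values are log2 MAS5 signals, scaled by the authors to a common trimmed mean that came to 500.05 or 500.06 on every array. A probe set was called where the limma fit to all 12 arrays gave a Benjamini-Hochberg adjusted p below 0.05 over 14495 tested probe sets. All 8 ALDH genes were tested: their lowest value on any array was 8.96, and the highest 40th percentile of an array was 6.60. On the second principal component WT control replicate 1 stood at 72.7 and the other arrays between -25.0 and 29.3, so results that turn on that array are given with and without it. Of the tissue markers, rubisco activase (RCA), a leaf gene, was at 14.84 to 15.03 in the 4 group means, and the root-hair expansin EXPA18 was at 6.46 to 6.76. The root gene LBD16 had means of 6.72 and 5.91 in WT control and dehydrated seedlings (log2). It differed with dehydration by -0.81 ± 0.31 in WT, -0.40 ± 0.31 in 46T and -0.60 ± 0.22 averaged over the lines (SE; limma adjusted p = 0.113, 0.488 and 0.0603). It was above the 40th percentile on 3 of 3 WT control, 1 of 3 46T control and 0 of 6 dehydrated arrays. LBD16 thus passed the filter through the control arrays, and its difference is no support for a change of the root markers. Its averaged difference passed in 7 of 20 alternatives, among them those that left out control replicate 1 of WT (-0.67) or of 46T (-0.70). Its part in the dehydration results was not tested. RCA was the 1 named gene of 24 shoot markers, and EXPA18 and LBD16 were the 2 tested of 22 root markers; 0 of these 3 were called in any of the 5 planned comparisons. In RNA of whole seedlings, fewer cells of a type and less RNA per cell cannot be told apart.

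Dehydration was compared with control first, since the family is known for stress responses. After 1 h, 2 ALDH genes were lower: ALDH7B4 fell in WT and in 46T, and ALDH6B2 fell in 46T. These declines were 1.48-fold to 1.53-fold. Lower calls made up 4.30% of all tested probe sets in WT and 3.50% in 46T. Of the 8 members, 0 rose in either line, beside 7.29% and 6.69% of all tested probe sets.

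ALDH7B4 belongs to the antiquitin group, whose human member oxidises an aldehyde of lysine breakdown, and in Arabidopsis it is known as a gene induced by drought, salt and abscisic acid. In WT control seedlings its log2 signal was 11.62, 12.21 and 11.90 in replicates 1, 2 and 3, and in WT dehydrated seedlings 11.27, 11.35 and 11.41. In 46T control seedlings it was 11.92, 12.02 and 12.32, and in 46T dehydrated seedlings 11.24, 11.44 and 11.73. All dehydrated arrays lay below all control arrays of their own line, with no overlap, and the lowest control value, that of WT control replicate 1, lay below the highest dehydrated value, that of 46T dehydrated replicate 3. The log2 difference was -0.57 ± 0.17 in WT (SE; 1.48-fold; limma adjusted p = 0.0445) and -0.61 ± 0.17 in 46T (1.53-fold; limma adjusted p = 0.0338).

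The WT call of ALDH7B4 was close to the threshold. Leaving out WT control replicate 2 (-0.42) or 3 (-0.57) ended it, as did leaving out WT dehydrated replicate 1, 2 or 3 (-0.53, -0.57 and -0.60). It was also lost when the spread was estimated without 46T control replicate 1 or 2 or without 46T dehydrated replicate 2. Without WT control replicate 1 it was -0.71 (limma adjusted p = 0.00908). In 46T the call of ALDH7B4 was lost without 46T control replicate 2 (-0.65) or 3 (-0.50) and without 46T dehydrated replicate 1 (-0.50) or 2 (-0.60). The sign was negative under all 22 alternatives in both lines.

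ALDH6B2 is the mitochondrial methylmalonate-semialdehyde dehydrogenase, which acts late in valine breakdown. Its log2 signal was 11.32, 11.54 and 11.35 in WT control replicates 1, 2 and 3, and 11.04, 10.84 and 11.06 after dehydration. In 46T it was 11.36, 11.75 and 11.72 in control seedlings, and 10.90, 11.05 and 11.05 after dehydration. All 6 dehydrated arrays lay below all 6 control arrays, across both lines. How many of all tested probe sets separate in this way was not counted. Within a line, 12.9% of them in WT and 24.7% in 46T lay lower after dehydration with no overlap. ALDH6B2 fell by 0.61 ± 0.14 in 46T (SE; 1.53-fold; limma adjusted p = 0.0106). In WT its difference was -0.42 ± 0.14 (1.34-fold), which did not pass (limma adjusted p = 0.0638); without WT control replicate 1 it was -0.46 and passed (limma adjusted p = 0.0381). The 46T call was lost when control replicate 2 or 3 of that line, or its dehydrated replicate 1, was left out, where the difference was -0.54, -0.55 and -0.56.

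**Figure D1:**
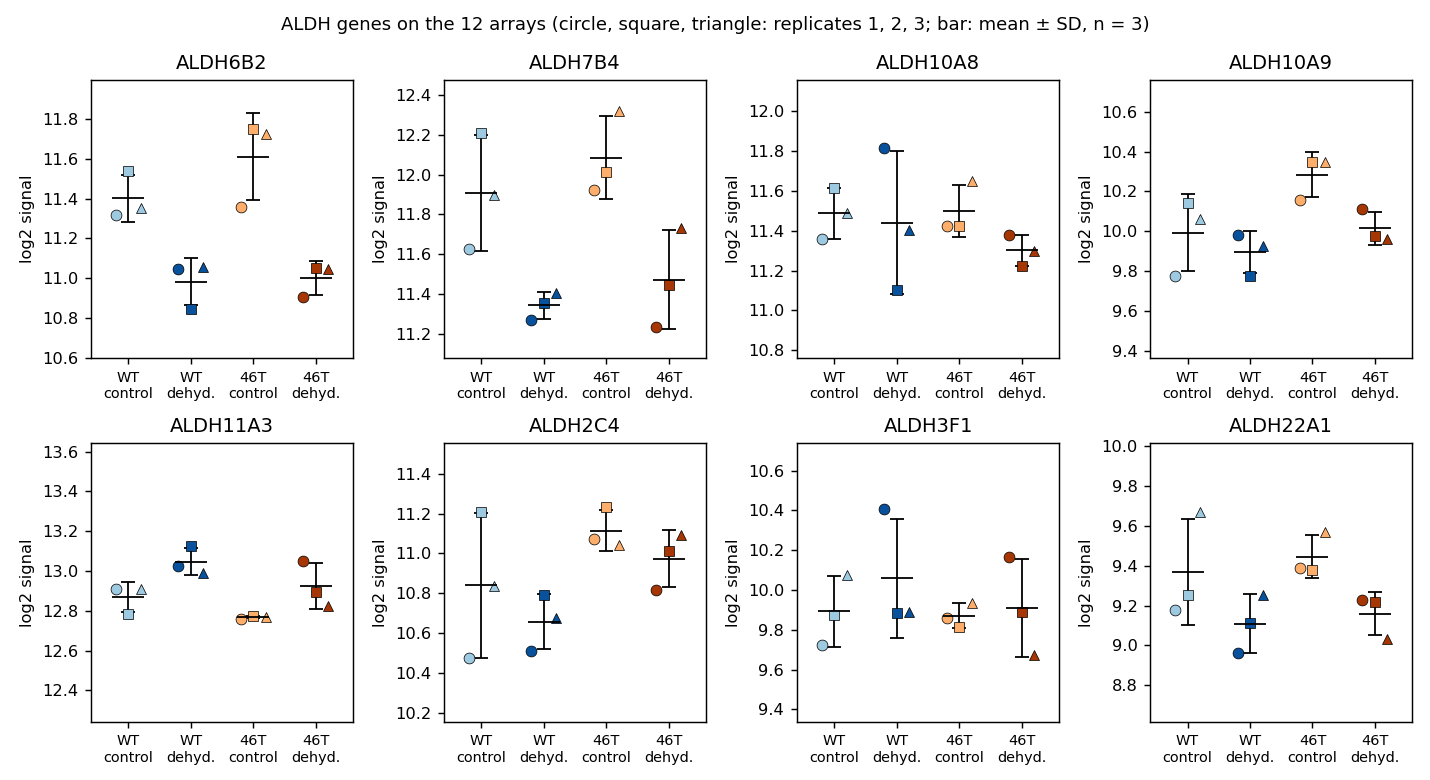
Log2 MAS5 signal (vertical axis) of the 8 ALDH genes in the 4 groups (horizontal axis); circles, squares and triangles are replicates 1, 2 and 3, bars are the mean ± SD of 3 arrays, and every panel spans the same height on the log2 scale. ALDH6B2 and ALDH7B4 are lower on the dehydrated arrays of each line, while the groups of ALDH3F1 overlap throughout.

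ALDH10A8 and ALDH10A9 encode aminoaldehyde dehydrogenases, which oxidise aldehydes of polyamine breakdown and betaine aldehyde. The ALDH10A8 enzyme is located in plastids and the ALDH10A9 enzyme in peroxisomes. The log2 signal of ALDH10A8 was 11.36, 11.62 and 11.49 in WT control replicates 1, 2 and 3, and 11.82, 11.10 and 11.41 after dehydration, so that the 3 dehydrated WT arrays spanned more than the controls and enclosed them. Line 46T had 11.42, 11.43 and 11.65 in control seedlings and 11.38, 11.22 and 11.30 after dehydration, all lower than the controls. Neither difference passed, at -0.05 ± 0.16 in WT and -0.20 ± 0.16 in 46T (SE; limma adjusted p = 0.897 and 0.512).

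The log2 signal of ALDH10A9 was 9.77, 10.14 and 10.06 in WT control replicates 1, 2 and 3, and 9.98, 9.78 and 9.93 after dehydration, with overlap. In 46T it was 10.16, 10.35 and 10.35 in control seedlings and 10.11, 9.98 and 9.96 after dehydration, with no overlap. The 46T control arrays were the highest of the 12 for this gene. The dehydration difference did not pass in WT (-0.10 ± 0.14, SE; limma adjusted p = 0.720) or in 46T (-0.27 ± 0.14; limma adjusted p = 0.267). The 95% intervals of the 2 genes were wide enough to hold no change and a fall of 0.40 in WT.

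ALDH11A3 encodes the non-phosphorylating glyceraldehyde 3-phosphate dehydrogenase of the cytosol, which makes NADPH. Its log2 signal was 12.91, 12.78 and 12.91 in WT control replicates 1, 2 and 3, and 13.03, 13.13 and 12.99 after dehydration. Seedlings of 46T gave 12.76, 12.78 and 12.77 in control seedlings, and 13.05, 12.90 and 12.82 after dehydration. The dehydrated arrays of each line lay above their controls, with no overlap, the opposite order to ALDH6B2 and ALDH7B4. The differences were small and did not pass, at 0.18 ± 0.10 in WT (SE; limma adjusted p = 0.304) and 0.15 ± 0.10 in 46T (limma adjusted p = 0.407). The pooled SD of ALDH11A3 within groups, 0.08, was smaller than that of all but 0.5% of the tested probe sets, whose median was 0.26.

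ALDH2C4, known as REF1, oxidises coniferaldehyde and sinapaldehyde to ferulic and sinapic acid. Its log2 signal was 10.48, 11.21 and 10.84 in WT control replicates 1, 2 and 3, and 10.51, 10.79 and 10.67 after dehydration. In 46T it was 11.07, 11.23 and 11.04 in control seedlings, and 10.81, 11.01 and 11.10 after dehydration. Control and dehydrated arrays overlapped in each line, and the WT controls alone spanned nearly the whole range of the 12 arrays. The difference with dehydration was -0.18 ± 0.17 in WT and -0.14 ± 0.17 in 46T (SE), and neither passed (limma adjusted p = 0.557 and 0.680). The WT difference rested on single arrays: with control replicate 1 left out it was -0.36, and with control replicate 2 left out it was 0.00. Leaving out the first dehydrated WT array gave -0.11. That in 46T was -0.08 without control replicate 2 and -0.06 without dehydrated replicate 1 of that line.

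ALDH3F1 belongs to family 3 of the enzymes, which acts on aldehydes from fatty acids. Its log2 signal was 9.73, 9.87 and 10.08 in WT control replicates 1, 2 and 3, and 10.41, 9.88 and 9.89 after dehydration. The 46T values were 9.86, 9.81 and 9.94 in control seedlings and 10.16, 9.89 and 9.67 after dehydration. Replicate 1 was the highest dehydrated array of each line, and the groups overlapped. The differences were 0.17 ± 0.18 in WT and 0.04 ± 0.18 in 46T (SE; limma adjusted p = 0.610 and 0.931), and that in WT was -0.01 without WT dehydrated replicate 1 and 0.08 without WT control replicate 1.

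ALDH22A1 is the only member of its family. Its log2 signal was 9.18, 9.26 and 9.67 in WT control replicates 1, 2 and 3, and 8.96, 9.11 and 9.25 after dehydration, with overlap. In 46T it was 9.39, 9.38 and 9.57 in control seedlings and 9.23, 9.22 and 9.03 after dehydration, with no overlap. The differences, -0.26 ± 0.16 in WT and -0.29 ± 0.16 in 46T (SE), did not pass (limma adjusted p = 0.340 and 0.304). In WT the difference was -0.11 without WT control replicate 3, -0.35 without WT control replicate 1 and -0.41 with array weights.

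Counted together, 1 of 8 members was called lower in WT and 2 of 8 in 46T. Of all tested probe sets, 4.30% were called lower in WT and 3.50% in 46T, and 7.29% and 6.69% were called higher. The members' median difference was -0.14 in WT, beside -0.02 over all tested probe sets, and -0.23 in 46T, beside -0.08. In WT 2 of 8 members, and in 46T the same number, had an unadjusted p below 0.05 in limma, beside 26.5% and 24.3% of all probe sets. Either direction counted, 11.6% of probe sets were called in WT and 10.2% in 46T. In WT, 2 of 8 members lay lower with no overlap, beside 12.9% of all probe sets, and ALDH11A3 lay higher, beside 13.4%. In 46T, 5 of 8 lay lower with no overlap, beside 24.7%, and ALDH11A3 again lay higher, beside 15.6%.

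A technical measure moved with dehydration as well. The difference between the 3' and 5' control probe sets for ubiquitin was 1.87 ± 0.27 in WT control and 1.26 ± 0.11 in WT dehydrated arrays (log2, SD, n = 3), and ran from 1.82 to 2.03 against 1.26 to 1.52 in 46T, with no overlap in either line. For GAPDH the arrays overlapped, at 1.02 ± 0.22 against 0.87 ± 0.04 in WT and 1.21 ± 0.09 against 1.17 ± 0.06 in 46T. For actin they overlapped too, and the means went the other way. They were 4.32 ± 0.26 against 4.49 ± 0.17 in WT and 4.57 ± 0.14 against 4.70 ± 0.26 in 46T. The part of these measures in the results was not tested.

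Dehydration was also averaged over the lines, a comparison added after the data were seen. ALDH6B2 fell by 0.52 ± 0.10 (SE; 1.43-fold; limma adjusted p = 0.00158) and ALDH7B4 fell by 0.59 ± 0.12 (1.51-fold; limma adjusted p = 0.00266). Both calls held under all 21 alternatives of this comparison, where the fall of ALDH6B2 ranged from -0.48 to -0.58 and that of ALDH7B4 from -0.52 to -0.66. These were 2 of 8 members called lower, beside 12.4% of all tested probe sets (12.2% were called higher and 24.7% in either direction), and 4 of 8 had an unadjusted p below 0.05 in limma, beside 36.3%. ALDH22A1 (-0.27 ± 0.11, limma adjusted p = 0.0961) and ALDH10A9 (-0.18 ± 0.10, limma adjusted p = 0.202) did not pass, and both passed without WT control replicate 1 (-0.32 and -0.24), which brought the count to 4, beside 33.1% of all probe sets in that setting; ALDH22A1 also passed with array weights (-0.33). ALDH11A3 (0.17 ± 0.07, limma adjusted p = 0.117) passed only after quantile normalization (0.21). ALDH10A8, ALDH2C4 and ALDH3F1 had differences of -0.12, -0.16 and 0.10 and passed under none of these alternatives.

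**Figure D2:**
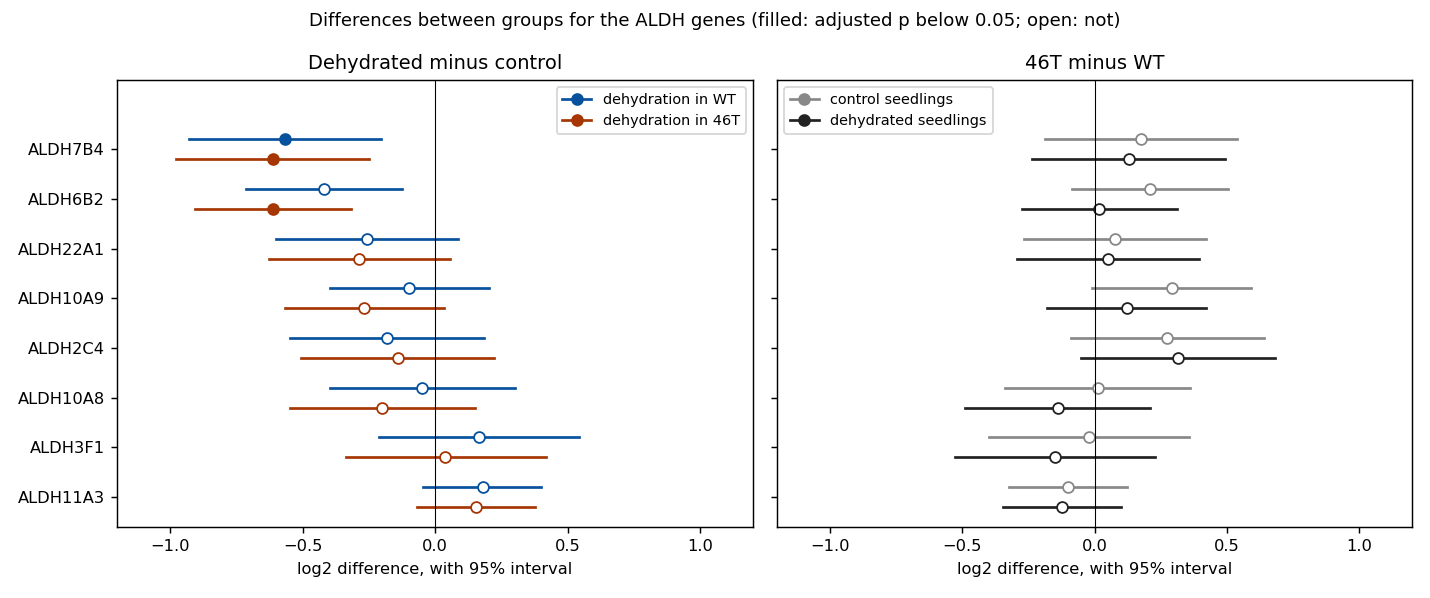
Log2 differences of the 8 ALDH genes (points) with their 95% intervals (lines); on the left dehydrated minus control in WT (blue) and 46T (brown), on the right 46T minus WT in control (grey) and dehydrated (black) seedlings. Filled points passed the test: ALDH7B4 in both lines and ALDH6B2 in 46T, and no point on the right.

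The lines were compared next, to ask whether a seedling with more WRKY46 differs in these genes before or after drying. In control seedlings 0 of 8 members passed, and 0 of 8 had an unadjusted p below 0.05 in limma, where 0.359% of all tested probe sets were called and 13.7% had such a p. ALDH10A9 was nearest: its log2 mean was 9.99 ± 0.19 in WT and 10.28 ± 0.11 in 46T (SD, n = 3), a difference of 0.29 ± 0.14 (SE; 95% interval -0.01 to 0.59; limma adjusted p = 0.377), or 0.18 without WT control replicate 1. Its 3 values in 46T were all above those in WT, and 8.85% of tested probe sets were higher with no overlap in this way. ALDH11A3 lay lower in 46T with no overlap (-0.10 ± 0.10), beside 6.13% of probe sets, its log2 mean being 12.87 ± 0.08 in WT and 12.77 ± 0.01 in 46T (SD, n = 3; limma adjusted p = 0.646).

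The other 6 genes overlapped between the lines in control seedlings. ALDH2C4 differed by 0.28 ± 0.17 (SE), by 0.09 without WT control replicate 1 and by 0.46 without WT control replicate 2 (limma adjusted p = 0.0717). ALDH6B2 differed by 0.21 ± 0.14 (0.34 without 46T control replicate 1), ALDH7B4 by 0.18 ± 0.17 and ALDH22A1 by 0.08 ± 0.16. ALDH10A8 and ALDH3F1 had differences of 0.01 and -0.02. Without WT control replicate 1 the difference of ALDH7B4 was 0.03 and that of ALDH22A1 -0.02; without WT control replicate 2 that of ALDH7B4 was 0.32, without 46T control replicate 3 it was 0.06, and without WT control replicate 3 that of ALDH22A1 was 0.23.

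In dehydrated seedlings 0 of 8 members passed as well, with 0 of 8 at an unadjusted p below 0.05 in limma, and 0.152% of all probe sets were called while 9.64% had such a p. ALDH2C4 had the largest difference, with log2 means of 10.66 ± 0.14 in WT and 10.97 ± 0.14 in 46T (SD, n = 3), or 0.32 ± 0.17 (SE; 95% interval -0.05 to 0.68; limma adjusted p = 0.567). Its values did not overlap between the lines, as for 14.6% of tested probe sets that lay higher in 46T; 0 members lay lower in this way, beside 8.75%. ALDH7B4 differed by 0.13 ± 0.17, ALDH10A9 by 0.12 ± 0.14, ALDH22A1 by 0.05 ± 0.16 and ALDH6B2 by 0.02 ± 0.14. ALDH11A3, ALDH10A8 and ALDH3F1 had differences of -0.12, -0.14 and -0.15. Averaged over both conditions, a comparison added after the data were seen, ALDH2C4 was at 0.29 ± 0.12 (limma adjusted p = 0.180), passed only without WT control replicate 2 (0.39, limma adjusted p = 0.0231), and was 0.20 without WT control replicate 1. In that average 0 of 8 members were called, beside 1.65% of all probe sets (1.14% higher and 0.511% lower). In limma 1 of 8, ALDH2C4, had an unadjusted p below 0.05, beside 22.3% of all.

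Spiked poly-A RNAs that control for labelling differed between the lines, at 7.86 to 8.79 in WT control and 8.12 to 8.51 in WT dehydrated arrays against 7.78 to 7.95 and 7.76 to 7.86 in 46T (log2). The GAPDH difference between 3' and 5' control probe sets was 0.83 to 0.92 in WT dehydrated and 1.11 to 1.23 in 46T dehydrated arrays, with no overlap. In control arrays it overlapped between the lines, and the ubiquitin and actin differences overlapped in both conditions. The part of these measures in the line differences was not tested. Centring each array on its median moved the median of all tested probe sets from 0.07 to -0.05 for the lines in control seedlings, so that differences between the lines of about 0.1 depend on the scaling. With that centring ALDH10A9 differed by 0.17 and ALDH2C4 by 0.15 in control seedlings.

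The interaction of line and dehydration asked whether drying changed a gene by a different amount in 46T. No member passed (0 of 8, limma adjusted p = 1.00 for each, and 0 of 8 at an unadjusted p below 0.05), and of all tested probe sets 0 were called and 2.01% had an unadjusted p below 0.05. The difference between the responses of ALDH6B2 was -0.19 ± 0.19 (SE; 95% interval -0.61 to 0.23), so the call of ALDH6B2 in 46T and not in WT does not set the lines apart. For ALDH7B4 it was -0.05 ± 0.24 (95% interval -0.56 to 0.47). The remaining interaction values ran from -0.17 for ALDH10A9 to 0.04 for ALDH2C4.

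The order of the 4 group means differed among the genes. ALDH6B2 and ALDH7B4 shared 1 order: 46T control, WT control, 46T dehydrated and WT dehydrated, and for ALDH6B2 the step between the 2 control and the 2 dehydrated groups had no overlap. ALDH22A1 had the same order, with overlap at each step. ALDH11A3 and ALDH3F1 also shared an order, WT dehydrated, 46T dehydrated, WT control and 46T control. ALDH10A9 and ALDH2C4 ran from 46T control and 46T dehydrated to WT control and WT dehydrated, and only the first step of ALDH10A9 had no overlap. The range over the 12 arrays was largest for ALDH7B4, at 1.08 on the log2 scale, followed by ALDH6B2 at 0.91, and smallest for ALDH11A3 at 0.36.

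The arrays on which ALDH7B4 was low also had low ALDH6B2 and high ALDH11A3. Over the 12 arrays Pearson's r between ALDH7B4 and ALDH6B2 was 0.91, the highest of the 28 pairs of members. Between ALDH7B4 and ALDH11A3 it was -0.87, the lowest. Within each line, control and dehydrated arrays did not overlap for these genes, though across the lines they did for ALDH7B4 and ALDH11A3. For that reason r was also taken within the 6 control and the 6 dehydrated arrays, which each hold both lines. It was 0.74 and 0.44 for ALDH6B2, and -0.72 and -0.83 for ALDH11A3. With the group means taken out, r was 0.61 for ALDH6B2 and -0.69 for ALDH11A3. These are descriptions of arrays that share scaling and labelling. Over the 28 pairs of members the median r was 0.35, with 10 pairs above 0.5 and 4 below -0.5, all 4 of which involve ALDH11A3. The shares among pairs of all tested probe sets were not computed.

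**Figure D3:**
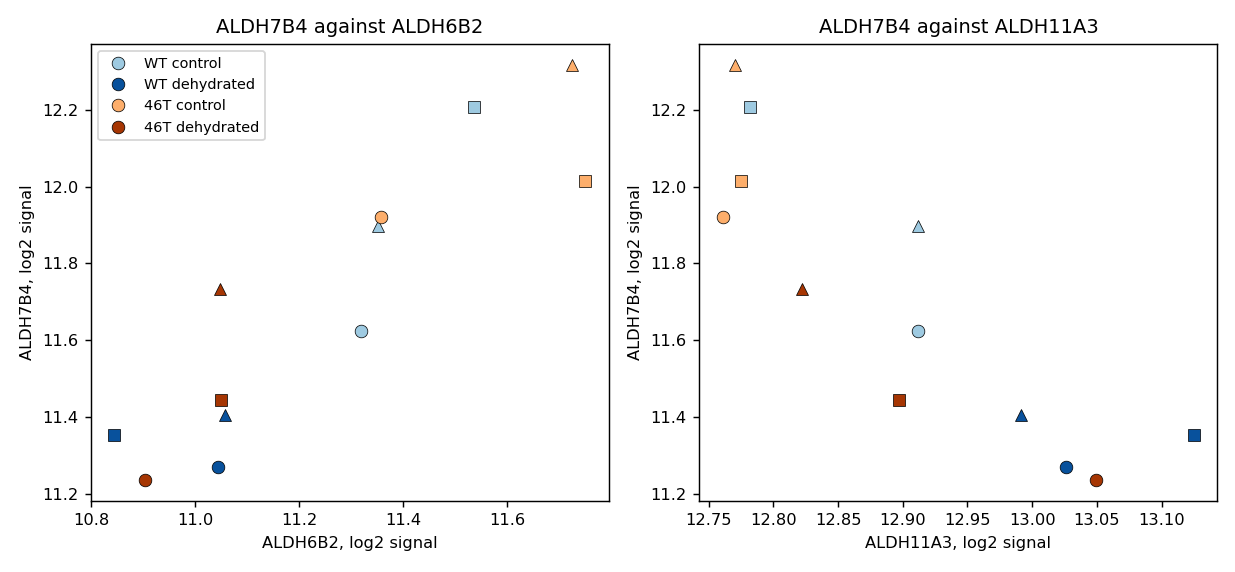
Log2 signal of ALDH7B4 (vertical axis) against ALDH6B2 (left) and ALDH11A3 (right) on the 12 arrays; colours mark the 4 groups, and circles, squares and triangles are replicates 1, 2 and 3. The dehydrated arrays lie at the low end for ALDH6B2 and ALDH7B4, though for ALDH7B4 WT control replicate 1 lies below 46T dehydrated replicate 3. Pearson's r is 0.91 on the left and -0.87 on the right, the highest and the lowest of all pairs of members.

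For the 2 genes that were called, the 3 genes whose log2 values correlated best over the 12 arrays were looked up among 3558 candidates with a mean at or above the median. For ALDH6B2 they were AT4G18930 (r = 0.96), the ATP-citrate lyase subunit gene ACLA-3 (r = 0.93) and AT1G78150 (r = 0.92). Since they were chosen on the same 12 arrays, their differences with dehydration follow in part from the choice and are given as a description. ACLA-3, whose enzyme makes cytosolic acetyl-CoA, differed by -0.61 ± 0.15 in WT and by -0.61 ± 0.15 in 46T (SE). AT4G18930 differed by -0.66 ± 0.20 and -1.07 ± 0.20. For ALDH7B4 they were AT5G65760 (r = 0.97), AT3G27770 (r = 0.96) and AT5G57655 (r = 0.96). AT3G27770 differed by -0.98 ± 0.19 in WT and -0.81 ± 0.19 in 46T, and AT5G65760 by -0.46 and -0.55. After the group means were taken out, r within groups was 0.55 to 0.73 for the genes like ALDH6B2 and 0.87 to 0.94 for those like ALDH7B4. These values too follow in part from the choice, which used the same arrays.

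Genes of the pathways around the 8 enzymes were taken from 6 lists, which hold 125 entries, of which 19 are named in the annotation and 17 were tested. The lists too were chosen with earlier results of these data known. In WT, 1 of the 17 rose (CCR2), 2 fell and 14 did not pass; in 46T, 1 rose (CCR2), 5 fell and 11 did not pass. Of all tested probe sets 7.29% rose and 4.30% fell in WT, and 6.69% and 3.50% in 46T.

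Of 4 tested genes of branched-chain amino acid breakdown, the list taken for ALDH6B2, 1 fell in WT and 2 fell in 46T. Their median differences were -0.55 and -0.81, beside -0.02 and -0.08 over all tested probe sets. The called genes act in leucine breakdown, whereas ALDH6B2 acts in valine breakdown. IVD, isovaleryl-CoA dehydrogenase of leucine breakdown, fell from 11.33 to 10.50 in WT and from 11.47 to 10.67 in 46T (log2 group means), or by 0.83 ± 0.20 and 0.80 ± 0.20 (SE; limma adjusted p = 0.0146 and 0.0177). MCCB, the beta subunit of methylcrotonyl-CoA carboxylase, the next step, fell by 0.81 ± 0.22 in 46T (limma adjusted p = 0.0304) and differed by -0.52 ± 0.22 in WT, which did not pass (limma adjusted p = 0.146) except without WT control replicate 1 (-0.79, limma adjusted p = 0.00949). MCCA, the alpha subunit, differed by -0.57 ± 0.29 and -0.85 ± 0.29 and did not pass (limma adjusted p = 0.227 and 0.0839). In WT MCCA passed without WT control replicate 1 (-0.97, limma adjusted p = 0.00668) and was -0.27 without WT control replicate 2. In 46T it passed in 5 alternatives: when the spread was estimated without WT control replicate 1 or 2, in a fit of only the groups compared, with array weights and with the replicate block (limma adjusted p = 0.00130 to 0.0327). AT4G20930 differed by -0.31 ± 0.23 in WT and -0.17 ± 0.23 in 46T and passed in neither line (limma adjusted p = 0.44 and 0.71). Nor did it pass averaged over the lines (-0.24, limma adjusted p = 0.31).

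The call of IVD in WT was lost without WT dehydrated replicate 1 (-0.65), and in 46T when control replicate 2 or 3 or dehydrated replicate 1 or 2 of that line was left out, as was that of MCCB. Averaged over the lines, 3 of the 4 genes fell: IVD by 0.82 ± 0.14, MCCA by 0.71 ± 0.20 and MCCB by 0.67 ± 0.15 (SE; limma adjusted p = 7.4e-04, 0.0209 and 0.00650). Of all tested probe sets, 12.4% were called lower in this averaged comparison. IVD and MCCB kept their calls under all 21 alternatives, and MCCA kept its call under 17. The call of MCCA was lost without WT dehydrated replicate 1 (-0.66), 46T control replicate 2 (-0.63) and 46T dehydrated replicate 1 (-0.67) or 2 (-0.66).

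The lysine breakdown list had 1 tested gene, AT4G33150, which encodes lysine-ketoglutarate reductase/saccharopine dehydrogenase, the entry enzyme. It differed by -0.49 ± 0.36 in WT and -0.79 ± 0.36 in 46T (SE) and did not pass (limma adjusted p = 0.427 and 0.190). In WT its value was 0.06 without WT control replicate 2 (limma adjusted p = 0.897) and -0.92 without WT control replicate 1, where it passed (limma adjusted p = 0.0454).

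Around the aminoaldehyde dehydrogenases, 3 genes were tested. CuAO1, a copper amine oxidase that makes aminoaldehydes from polyamines, fell by 0.55 ± 0.15 in 46T (SE; limma adjusted p = 0.0341), a call lost without any 1 of the 46T arrays, and differed by -0.37 ± 0.15 in WT (limma adjusted p = 0.133). SAMDC, S-adenosylmethionine decarboxylase of polyamine synthesis, differed by 0.13 and 0.16. PMEAMT, a phosphoethanolamine methyltransferase of choline synthesis, differed by 0.35 ± 0.12 in WT and 0.19 ± 0.12 in 46T, and passed in neither line (limma adjusted p = 0.0803 and 0.383).

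Of 3 glycolytic genes near ALDH11A3, 0 passed in either line. GAPC2, the phosphorylating cytosolic enzyme that uses the same substrate, differed by 0.19 ± 0.13 in WT and 0.20 ± 0.13 in 46T (SE). ENOC, an enolase, differed by -0.21 and -0.25, and the triose phosphate isomerase gene TPI by -0.05 and 0.04.

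In the phenylpropanoid list around ALDH2C4, 4 genes were tested, and 1 rose in each line. CCR2, cinnamoyl-CoA reductase, which makes the aldehydes that ALDH2C4 oxidises, was at 5.59, 6.26 and 5.78 in WT control and 7.86, 7.34 and 7.11 in WT dehydrated replicates 1, 2 and 3, and between 6.12 and 6.82 against 7.53 to 8.00 in 46T (log2). It was above the 40th percentile on 0 of 3 WT and 1 of 3 46T control arrays and on all dehydrated arrays. It thus passed the filter through the dehydrated arrays, and its call (limma adjusted p = 0.00286 and 0.00425) is no support for a change of the list. Its log2 difference, 1.56 and 1.44, rests on low control values and was 1.17 and 1.16 with a pseudocount of 32. UGT72E2, which glucosylates the matching alcohols, fell by 0.90 ± 0.18 in 46T (limma adjusted p = 0.00596) and differed by -0.40 ± 0.18 in WT (limma adjusted p = 0.187), where it passed without WT control replicate 3 (-0.60, limma adjusted p = 0.0404); its interaction did not pass (-0.50 ± 0.26). HCT, a hydroxycinnamoyl transferase early in the pathway, differed by 0.41 ± 0.20 and 0.24 ± 0.20, and UGT84A3, which glucosylates hydroxycinnamic acids, by 0.07 and 0.16.

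The list of other enzymes of reactive aldehydes had 2 tested genes. GLY2, a glyoxalase II of methylglyoxal removal, fell by 0.44 ± 0.13 in WT and 0.55 ± 0.13 in 46T (SE; limma adjusted p = 0.0410 and 0.0144), though its WT call held in only 9 of 22 alternatives. The WT call was lost without WT control replicate 2 or 3 or WT dehydrated replicate 1 or 2 (-0.32 for the last), and when the spread was estimated without any 1 of the 46T controls or without 46T dehydrated replicate 2 or 3. The 46T call was lost when control replicate 3 or dehydrated replicate 1 of that line was left out. AER, an alkenal reductase, differed by -0.27 ± 0.18 and -0.26 ± 0.18.

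**Figure D4:**
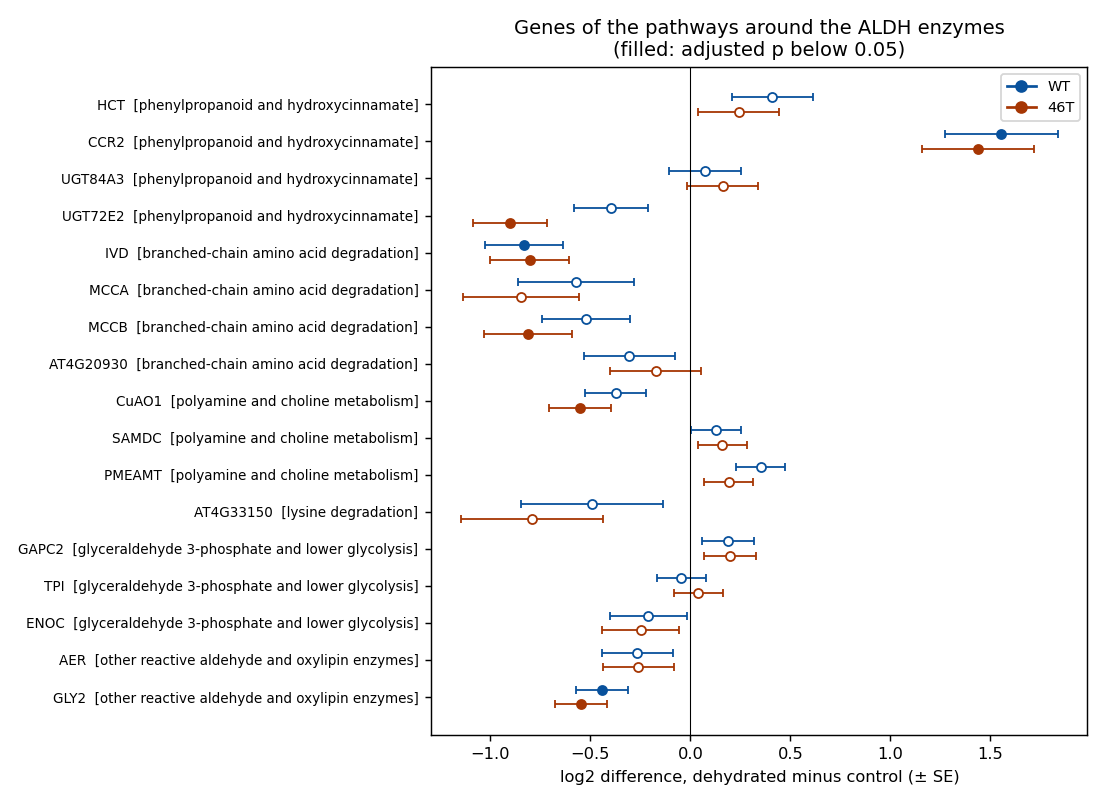
Log2 difference, dehydrated minus control, with its SE for the 17 tested genes of the 6 pathway lists (the list in brackets), in WT (blue) and 46T (brown); filled points passed the test. The branched-chain genes lie left of 0, at -0.17 to -0.85, and CCR2, whose control values lie mostly under the 40th percentile of their arrays, is drawn at 1.56 and 1.44, values that were 1.17 and 1.16 with a pseudocount of 32.

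As a check of the treatment, the dehydrin genes COR47 and LTI30 were the 2 tested of 28 dehydration and abscisic acid markers. COR47 rose by 1.11 ± 0.23 in 46T (SE; limma adjusted p = 0.00622) and differed by 0.31 ± 0.23 in WT, which did not pass (limma adjusted p = 0.438). LTI30 differed by 0.65 ± 0.27 in WT and 0.75 ± 0.27 in 46T and passed in neither line (limma adjusted p = 0.147 and 0.103). In WT, then, 0 of the 2 passed. Averaged over the lines both rose, by 0.71 ± 0.16 and 0.70 ± 0.19 (limma adjusted p = 0.00577 and 0.0168), beside 12.2% of all tested probe sets.

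Averaged over the lines, 2 of the 17 pathway genes rose, 6 fell and 9 did not pass, beside 12.2% and 12.4% of all tested probe sets that rose and fell. Beside CCR2, PMEAMT rose by 0.27 ± 0.09 (SE; limma adjusted p = 0.0341), a call lost in 8 of 21 alternatives: after median centring (0.26), with no intensity trend, and without WT dehydrated replicate 1 or 2, 46T control replicate 2 or 3, or dehydrated replicate 1 or 2 of 46T. Beside IVD, MCCA and MCCB, UGT72E2 fell by 0.65 ± 0.13, GLY2 by 0.50 ± 0.09 and CuAO1 by 0.46 ± 0.11 (limma adjusted p = 0.00249, 0.00142 and 0.00660).

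Between the lines, 0 of the 17 pathway genes passed in control seedlings and 0 in dehydrated seedlings, beside 0.359% and 0.152% of all tested probe sets. UGT84A3 was nearest, at 8.04 in WT and 7.19 in 46T in control seedlings and at 8.11 and 7.35 after dehydration (log2 group means), with differences of -0.84 ± 0.18 and -0.76 ± 0.18 (SE; limma adjusted p = 0.0673 and 0.172). It passed in 6 of 22 alternatives in control seedlings, among them quantile normalization (-0.98), median centring (-0.97) and without WT control replicate 1 (-0.93) or 2 (-0.84), and in 2 of 22 in dehydrated seedlings, with array weights (-0.78) and without WT control replicate 1. Without WT control replicate 2, UGT72E2 (0.65), MCCB (0.70), SAMDC (-0.39), AT4G33150 (1.33) and GAPC2 (-0.40) also passed in control seedlings, where 11.3% of all probe sets were called in place of 0.359%. Averaged over both conditions UGT84A3 was lower in 46T, with a difference of -0.80 ± 0.13, and passed (limma adjusted p = 0.00557), as it did under all 21 alternatives. It was the 1 called gene of the 17, beside 1.65% of all tested probe sets called in either direction and 0.511% called lower.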

How the data were processed

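Log2 values of 22810 probe sets on 12 ATH1 arrays were analysed. Per the submitters' processing notes the signals were made with MAS5 (version not given in the sources used here), and the deposited values are log2 signals: unlogged, each array had a mean of 500.05 or 500.06 once 2% was trimmed from either end. MAS5 subtracts mismatch signals, so low values vary most. The table was not normalized again.

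The 64 control probe sets were left out, and probe sets above the 40th percentile of their array on at least 3 arrays were tested. The 4 group means were fitted with limma 3.58.1 in R 4.3.3 (eBayes with an intensity trend), and two-sided p-values were adjusted by Benjamini-Hochberg. Intervals are 95% intervals of this fit. The steps were tested on simulated data with independent noise and planted changes larger than those of the ALDH genes. That test does not cover changes of their size or deviations shared by an array. The number of arrays limits the precision.

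Of the probe sets, 13513 name 1 gene, 503 several and 8794 none. Symbols were updated through RefSeq's table for TAIR10.1, which 13436 matched. No sequences were used here.

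The members and lists were chosen with earlier results of these data known. Named genes were all members, the 3 best correlates of each called member, and up to 4 called genes of each list per comparison, or, with none called, its 2 genes of smallest p. Alternatives were other filters, a pseudocount or floor of 32, other scalings, array weights, other spread estimates, a replicate block and each array left out. The 2 averaged comparisons were added after seeing the data.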

Additional observations from a re-analysis of the deposited data

How the results depend on the processing

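In WT, 1 of the ALDH genes was called after dehydration (ALDH7B4), and 0 were called with no filter, after quantile normalization, in a fit of only the groups compared and without the intensity trend; leaving out 1 array gave 0 to 2. In 46T the count of 2 became 1 without the intensity trend, and leaving out 1 array gave 0 to 2. Averaged over the lines it was 2, and leaving out 1 array gave 2 to 4. For 46T against WT averaged over both conditions it was 0, and leaving out 1 array gave 0 to 1. The counts for the lines in control or dehydrated seedlings and for the interaction were 0 under every alternative run. The cause was not tested. No called value of a member changed sign. Over all tested probe sets the count of calls ran from 751 to 2372 around 1680 for dehydration in WT, from 772 to 3662 around 1476 in 46T, from 2647 to 4803 around 3574 averaged over the lines (the most without WT control replicate 1), from 13 to 1640 around 52 for the lines in control seedlings (the most without WT control replicate 2; 38 higher and 14 lower, against 40 and 41 after median centring and 38 and 33 after quantile normalization), from 13 to 359 around 22 in dehydrated seedlings and from 77 to 2693 around 239 averaged over conditions (165 higher and 74 lower, against 166 and 151 after median centring and 181 and 146 after quantile normalization). Same-numbered arrays of different groups did not deviate together throughout (r from -0.12 to 0.35), so the numbers were not taken as pairs; with a replicate block, 1 member was called in WT (ALDH7B4, -0.57, limma adjusted p = 0.0220) and 2 in 46T, with 1778 and 1592 calls over all probe sets, and 423 for the lines averaged. The number of arrays, 3 per group, limits what could be called.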
